A study of Comephorus dybowskii and Comephorus baikalensis and Batrachocottus nikolskii with 4 samples.

Results

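Heat shock proteins were examined in skeletal muscle of Baikal sculpins through the 7 gene identifiers of the normalized tables that carry a protein title with the words "heat shock" and no troponin title. These are 7 of 792 identifiers with normalized values, of which 657 had a title. An eighth identifier, titled heat shock protein beta-8, was set aside because it also carries a troponin I title. By title alone, 5 of the 7 were placed in the small (beta) family, 1 in the 70 kDa family and 1 in the 90 kDa family. No identifier of the 60 kDa family was found among the titles read. The beta-9 title occurs on 2 identifiers, and 5 of the 7 carry a single title. Single means among the titles read, and some title rows were not read. Identifier names are shared between the separate assemblies of the species. An identifier with a single title may therefore also hold sequences of another protein, which was not checked.

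Muscle RNA of wild adult fish, caught by trawl, was sequenced as 4 libraries, 1 per species, without any treatment. By the study's methods, the hauls differed in depth and in the species taken. The part of capture and depth in the values was not tested. *Comephorus dybowski* and *Comephorus baicalensis* are pelagic, and *Batrachocottus nikolskii* and *Batrachocottus multiradiatus* are benthic. Each library is a pool, of 15 fish by the sample labels and of a larger number by the study's methods, so that no spread within a species was measured. The species of a genus stand here as its 2 samples, and genus, habitat and ancestry cannot be told apart. Totals of the read tables lay between 54508410 and 59156409 per library. Values are CPM (read counts scaled to adjusted library sizes by the authors), which are not corrected for transcript length. Levels are therefore compared between libraries, and a sum or share over identifiers is read only across libraries.

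The authors had kept the 792 identifiers because they differed in at least 1 pair of these same 4 libraries. Neither a count of differences among them nor the p-value of a member is therefore independent evidence of a difference. The limma p-values were adjusted over these selected identifiers only. Titles are best matches to proteins of other species. The authors assembled each species separately and merged only closely alike sequences, so forms of 1 gene from different species may stand as separate identifiers. Sequences of the members were not analysed here. Whether 2 identifiers with 1 title are gene copies, such forms or pieces of 1 transcript was not tested. How far separate forms enter the differences between libraries was not tested either.

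Heat shock proteins are molecular chaperones, which keep other proteins from misfolding and clumping. Small heat shock proteins share the alpha-crystallin domain and hold unfolded proteins without using ATP. Several of them bind the filaments of the sarcomere in mammals. Whether the identifiers placed in this family by title, beta-11-like among them, encode the alpha-crystallin domain was not checked. The 70 kDa and 90 kDa proteins fold their clients in cycles of ATP binding and hydrolysis, and the 90 kDa family takes part in the folding of myosin.

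Of the 5 small identifiers, heat shock protein beta-1 was lower in *Comephorus*, the one titled beta-11-like was higher, and the other 3 did not pass the test. The higher one also carries a title of another protein on the same sequence, and beta-1 is the only call among the 4 with a single title. Heat shock protein beta-1 (DN399_c0_g3), which in mammals guards actin filaments under stress, was at 0.142 CPM in *C. dybowski* and 3.98 CPM in *C. baicalensis*, against 114 CPM in *B. nikolskii* and 31.8 CPM in *B. multiradiatus*. The genera did not overlap, and the highest value was 802 times the lowest. The value in *C. dybowski* rests on 8 reads, with a counting interval of 0.0621 to 0.284 CPM. On log2(CPM + 1) the difference was -4.69 ± 1.22 (*Comephorus* minus *Batrachocottus*, SE, 2 libraries per genus), with an adjusted p of 0.0382 by limma. Over the 4 fits that left out a library it ranged between -5.75 and -3.62 with adjusted p between 0.0611 and 0.133, so the call was lost in each, as it was with both other pseudocounts (0.0550 and 0.0579) and with edgeR on read estimates (0.0927). Bulk RNA does not tell fewer cells of a type from less RNA per cell, here or below.

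Heat shock protein beta-7 (DN525_c0_g3), in mammals a protein of heart and skeletal muscle, was at 1.09 CPM in *C. dybowski* and 0.608 CPM in *C. baicalensis*, against 31.4 CPM in *B. nikolskii* and 0.503 CPM in *B. multiradiatus*. Only *B. nikolskii* stood high, with 2135 reads, while the other libraries held 29 to 60 reads each. Of the 3 low libraries, *B. multiradiatus* and *C. baicalensis* had overlapping counting intervals, and so had *C. baicalensis* and *C. dybowski*. The genera overlapped, and the difference of -1.93 ± 1.73 had an adjusted p of 0.358 by limma. It was 0.28 without *B. nikolskii* (adjusted p = 0.752) and -4.14 without *B. multiradiatus* (adjusted p = 0.0488). In the second of these fits the lone *Batrachocottus* library adds no spread of its own and is assumed to vary like the *Comephorus* libraries.

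The 2 identifiers titled heat shock protein beta-9, a protein known in mammals mainly from the testis, ran in opposite directions. The first (DN366_c0_g2) was at 23.0 CPM in *C. dybowski* and 46.7 CPM in *C. baicalensis*, against 11.2 CPM in *B. nikolskii* and 1.59 CPM in *B. multiradiatus*. The second (DN8_c0_g1) was at 2.87 CPM in *C. dybowski* and 26.2 CPM in *C. baicalensis*, against 70.4 CPM in *B. nikolskii* and 528 CPM in *B. multiradiatus*. Neither overlapped between the genera, yet neither passed the limma test. The first differed by 2.59 ± 1.12 on the log2 scale (adjusted p = 0.120) and the second by -4.24 ± 1.60 (adjusted p = 0.0897).

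Both beta-9 identifiers spanned wide ranges over the libraries, 29.3-fold for the first and 184-fold for the second, and *B. multiradiatus* was the lowest for the first and the highest for the second. Of all reads of the beta-9 title, DN8_c0_g1 held 11.1% in *C. dybowski* (95% Wilson interval 9.62% to 12.9%) and 36.0% in *C. baicalensis* (34.5% to 37.5%), against 86.3% in *B. nikolskii* (85.4% to 87.2%) and 99.7% in *B. multiradiatus* (99.6% to 99.8%). The intervals of the 4 libraries did not overlap, though they cover counting error only. The share was smaller in both *Comephorus* libraries than in both *Batrachocottus* libraries. Transcript lengths are not corrected for, so the share does not rank the identifiers within a library.

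Added up, both identifiers titled beta-9 were at 25.8 CPM in *C. dybowski* and 72.9 CPM in *C. baicalensis*, against 81.5 CPM in *B. nikolskii* and 529 CPM in *B. multiradiatus*. The sum differed by -2.23 on the log2 scale between the genera. *C. baicalensis* and *B. nikolskii*, which belong to different genera, were the closest neighbours in this order.

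**Figure D1:**
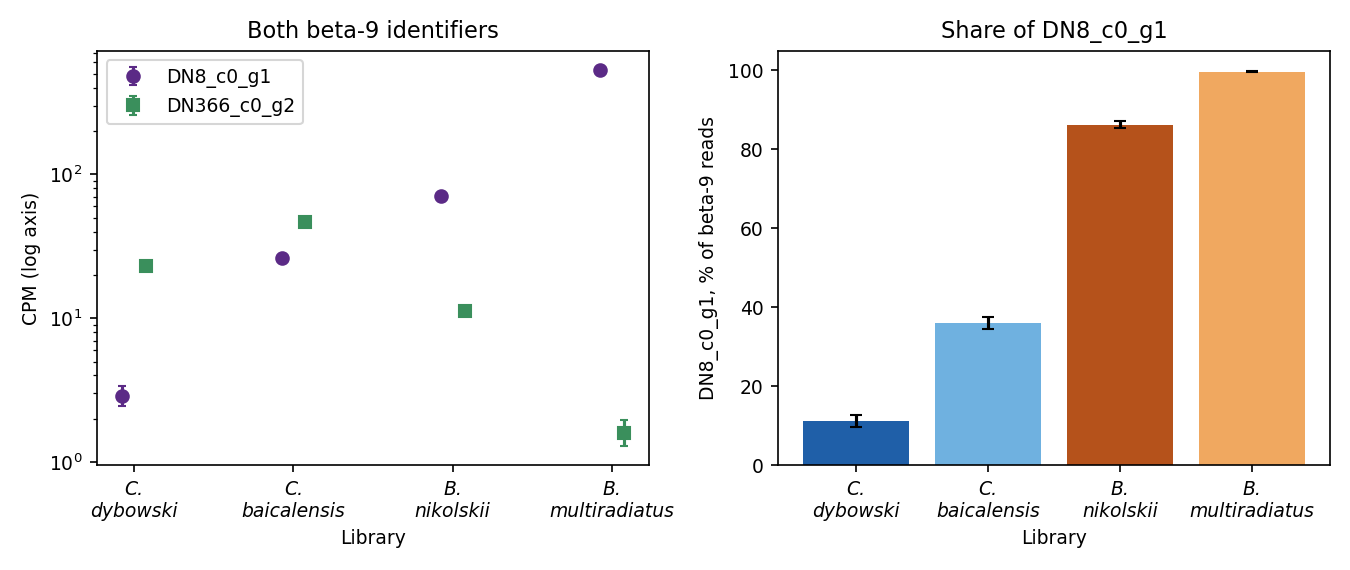
The left panel plots CPM (log axis) of both beta-9 identifiers in the 4 libraries with exact Poisson 95% intervals, and the right panel the percent of beta-9 reads that belonged to DN8_c0_g1 with Wilson 95% intervals. DN366_c0_g2 is highest in *C. baicalensis* at 46.7 CPM and DN8_c0_g1 in *B. multiradiatus* at 528 CPM, and the share of DN8_c0_g1 runs between 11.1% in *C. dybowski* and 99.7% in *B. multiradiatus*.

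The identifier titled heat shock protein beta-11-like (DN267_c0_g2) was at 150 CPM in *C. dybowski* and 116 CPM in *C. baicalensis*, against 0.239 CPM in *B. nikolskii* and 2.99 CPM in *B. multiradiatus*. It had the largest genus difference of the 7, 5.90 ± 0.94 on the log2 scale, with an adjusted p of 0.0188 by limma. Both *Comephorus* libraries were high, at 8352 and 6109 reads, and *B. nikolskii* held only 16 reads. The same assembled sequence also carries the title reticulon-4-like, a protein that shapes membranes of the endoplasmic reticulum, with an overlapping reading frame, so its reads cannot be given to the heat shock title alone.

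Reticulon-4-like was named on 2 further identifiers. The one with no other title (DN462_c0_g1) was at 2111 CPM in *C. dybowski* and 137 CPM in *C. baicalensis*, against 11.2 CPM in *B. nikolskii* and 31.0 CPM in *B. multiradiatus* (difference 4.77 ± 1.65, adjusted p = 0.0748 by limma). The other (DN267_c0_g1), which also carries troponin C and nudC titles, was at 169 and 8185 CPM in *C. dybowski* and *C. baicalensis*, against 18.4 and 36.0 CPM in *B. nikolskii* and *B. multiradiatus* (5.46 ± 2.14, adjusted p = 0.0965). Both lay above the *Batrachocottus* libraries in both *Comephorus* libraries, as did DN267_c0_g2, but their levels within *Comephorus* differed far more than the 1.30-fold of DN267_c0_g2.

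The 70 kDa family was represented by heat shock cognate 71 kDa protein (DN1108_c0_g6), the constitutive chaperone that folds new proteins and strips clathrin from vesicles. It was higher in *Comephorus*, at 37.9 CPM in *C. dybowski* and 20.8 CPM in *C. baicalensis*, against 1.31 CPM in *B. nikolskii* and 2.37 CPM in *B. multiradiatus*. The genera did not overlap, and the highest value was 29.0 times the lowest. The difference was 3.39 ± 0.80 on log2(CPM + 1), with an adjusted p of 0.0307 by limma. Of the 4 members in the count test it alone passed, with 2109 and 1101 reads in the *Comephorus* libraries, against 89 and 135 in the *Batrachocottus* libraries (3.97 ± 0.73, adjusted p = 0.0406 by edgeR's quasi-likelihood test). This call was lost in each fit that left out a library, over which the difference ranged between 3.52 and 4.63. DESeq2 called all 4 members tested, but it also called 1808 of all 4755 identifiers, where edgeR called 438.

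The 90 kDa family was represented by the identifier titled heat shock protein HSP 90-beta (DN1477_c0_g2), the constitutive form that matures kinases and steroid receptors. It was lower in *Comephorus*, at 1.16 CPM in *C. dybowski* and 10.3 CPM in *C. baicalensis*, against 80.8 CPM in *B. nikolskii* and 103 CPM in *B. multiradiatus*. The *Comephorus* libraries held 64 and 544 reads, far apart, while the *Batrachocottus* libraries lay close together at 5498 and 5852 reads. The difference of -4.22 ± 1.12 had an adjusted p of 0.0392 by limma, and the count test gave -3.96 ± 1.18 with an adjusted p of 0.101 by edgeR. This identifier joins 3 sequences, the others titled endothelin-converting enzyme 1, the protease that makes endothelin, and PEA-15, a protein that binds the kinase ERK. The files give 1 value for all 3, and no other identifier carried either of these titles.

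**Figure D2:**
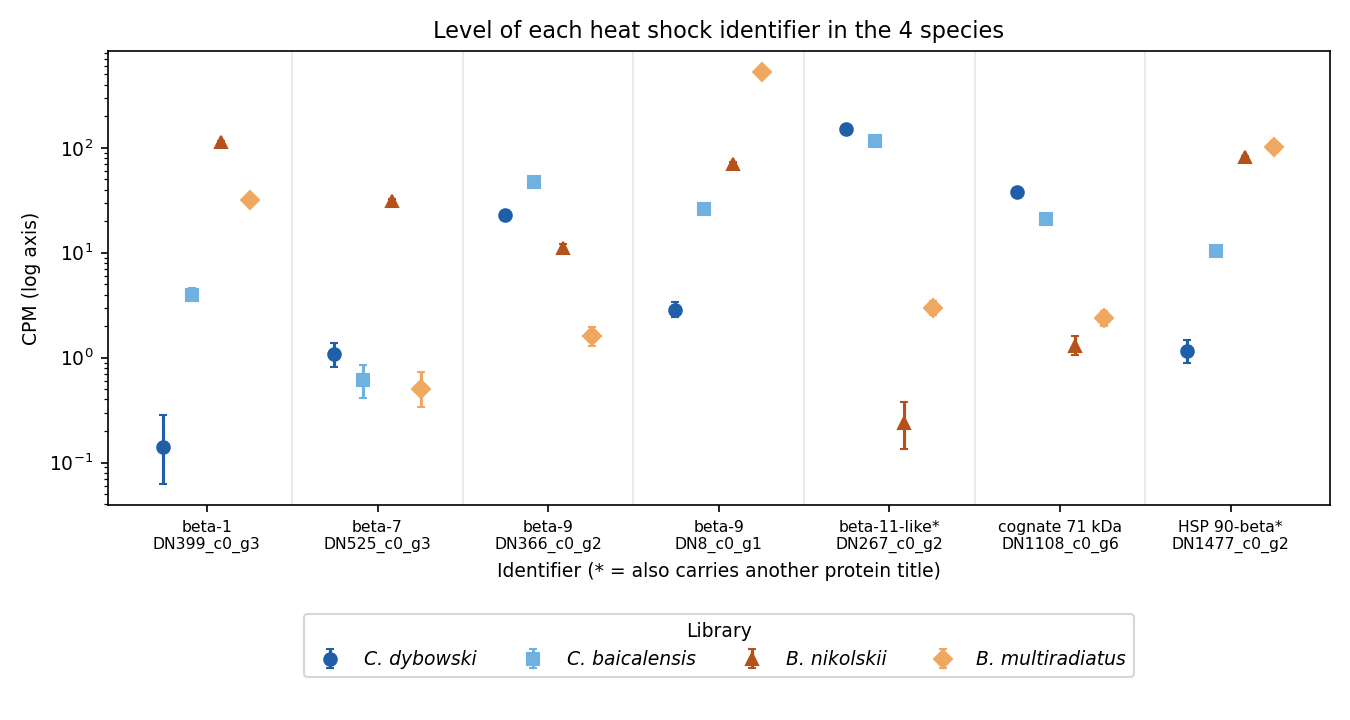
CPM (log axis) of the 7 heat shock identifiers in the 4 libraries, with exact Poisson 95% intervals of the read estimates that cover counting error only; an asterisk marks an identifier with another protein title. Both *Batrachocottus* libraries lie above both *Comephorus* libraries for beta-1, DN8_c0_g1 of beta-9 and HSP 90-beta. Both *Comephorus* libraries lie above for DN366_c0_g2 of beta-9, beta-11-like and the cognate 71 kDa protein. Only *B. nikolskii*, at 31.4 CPM, stands out for beta-7.

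Set side by side, the 70 kDa member differed by 3.39 and the 90 kDa identifier by -4.22 on the log2 scale, while the small family had 2 members with both *Comephorus* libraries above, 2 with both below and 1 that overlapped. The 90 kDa value belongs to an identifier that also carries the titles endothelin-converting enzyme 1 and PEA-15 and did not pass the count test, so it cannot be read as that of the family. Added up, the small family was at 177 CPM in *C. dybowski* and 193 CPM in *C. baicalensis*, against 227 CPM in *B. nikolskii* and 565 CPM in *B. multiradiatus*, a span of 3.18-fold. These sums join members of opposite directions, and the beta-11-like identifier in them also carries the reticulon title. They and the sums below cover only identifiers that the authors had kept for differing between these libraries. Such sums are therefore not levels of whole families, and neither is the 70 kDa value.

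Without beta-11-like, the 4 small identifiers with 1 title summed to 27.1 CPM in *C. dybowski* and 77.5 CPM in *C. baicalensis*, against 227 CPM in *B. nikolskii* and 562 CPM in *B. multiradiatus*. This sum differed by -2.93 on the log2 scale, against -0.95 for all 5. All 7 identifiers together were at 216 and 224 CPM in *C. dybowski* and *C. baicalensis*, against 309 and 670 CPM in *B. nikolskii* and *B. multiradiatus*. The sums were not tested, and differences between families were not tested either, since the 70 kDa and 90 kDa families have 1 member each.

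Over the 7 identifiers, limma called 4 at an adjusted p under 0.05, where it called 54% of all 792 (428). Of these, 2 were higher in *Comephorus* (all identifiers 30.1%, 238) and 2 were lower (all identifiers 24%, 190). Ranges of the genera did not overlap for 6 of the 7, as for 84.5% of all 792. The count test reached 4 of the 7, those listed for both genera, and called 1 of them, while it called 9.21% of 4755 identifiers. The members had been kept by the authors for differing and most of the 4755 had not, so these shares are of unlike sets. In the limma calls and the ranges, the shares of the members thus lay near those of all identifiers, and the median absolute difference was 4.22 for the members and 4.07 over all 792. The median signed difference was -1.93 for the members and 1.40 over all 792, and the value for the members is that of beta-7, which turns positive without *B. nikolskii*.

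Of the 4 calls, those of beta-11-like and HSP 90-beta belong to identifiers with further titles, and none held in every fit that left out a library. When *C. dybowski* was left out, limma called 0 of all 792 identifiers, members included, though 440 had an unadjusted p under 0.05. Leaving out *C. baicalensis* also gave 0 calls (453 by unadjusted p), as did leaving out *B. nikolskii* (442). The fit lacking *B. multiradiatus* called 316, among them 2 members, beta-11-like (adjusted p = 0.0483) and beta-7. Each such fit leaves a genus with 1 library, so that the spread comes from the other genus. With 2 libraries against 2, an exact two-sided permutation test of a single identifier cannot give a p below 0.333.

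**Figure D3:**
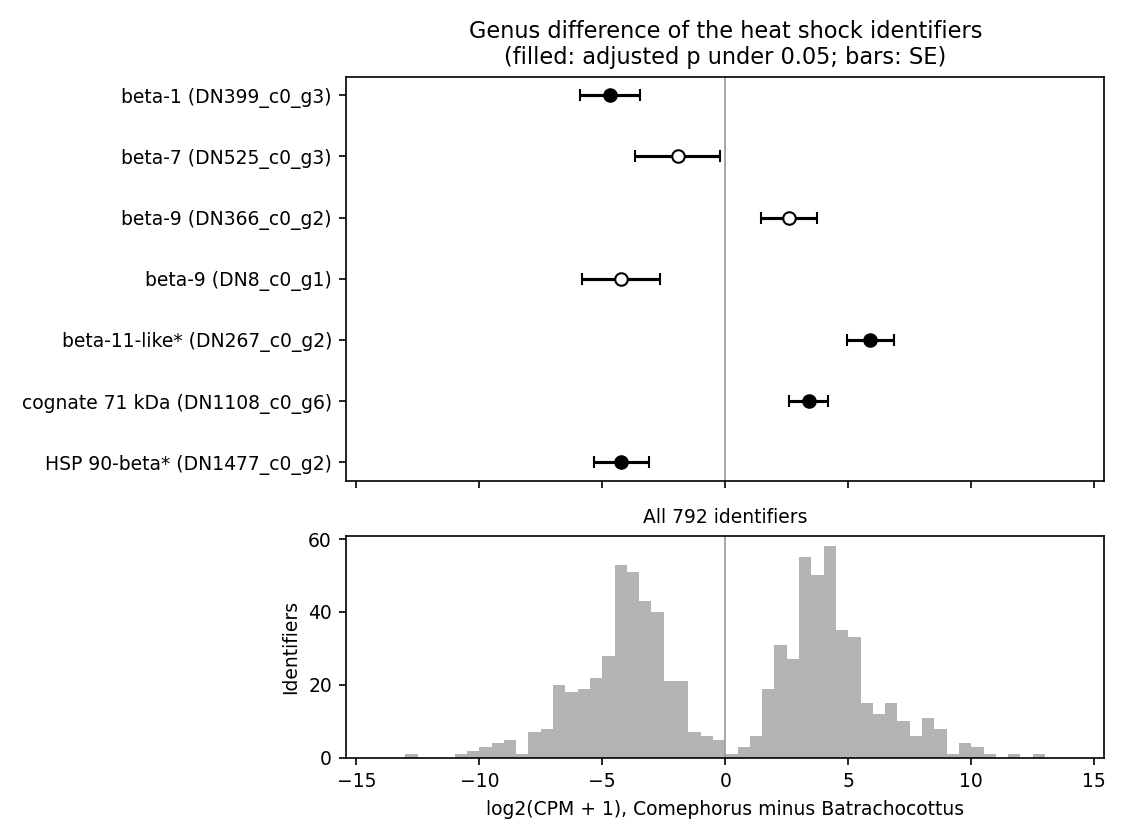
The upper panel plots the genus difference on log2(CPM + 1), *Comephorus* minus *Batrachocottus*, with limma's SE for the 7 heat shock identifiers (filled where the adjusted p is under 0.05, asterisk for another title), and the lower panel the number of all 792 identifiers by the same difference. The members spread over both sides, between -4.69 for beta-1 and 5.90 for beta-11-like, as do all identifiers.

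Within a genus, differences between the species were as large as 4-fold for some members in each pair. Between *C. dybowski* and *C. baicalensis*, 3 of 7 members differed by at least 4-fold on log2(CPM + 1) (26.5% of all 792), and all 3 had the smaller value in *C. dybowski*. These were DN8_c0_g1 of beta-9 (-2.81, *C. dybowski* minus *C. baicalensis*), HSP 90-beta (-2.39) and beta-1 (-2.13). The remaining 4 ranged between -0.99 for DN366_c0_g2 of beta-9 and 0.84 for the cognate 71 kDa protein.

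Between *B. nikolskii* and *B. multiradiatus*, 3 of 7 members differed by at least 4-fold on log2(CPM + 1) (30.2% of all 792). Beta-7 (4.43, *B. nikolskii* minus *B. multiradiatus*) and DN366_c0_g2 of beta-9 (2.23) were larger in *B. nikolskii*, and DN8_c0_g1 of beta-9 (-2.89) was larger in *B. multiradiatus*. Beta-11-like was not counted at -1.69, although its CPM of 0.239 in *B. nikolskii* was 0.0799 times the 2.99 CPM of *B. multiradiatus*, since the added 1 shrinks differences of low values. HSP 90-beta (-0.34) and the cognate 71 kDa protein (-0.55) lay closest together. The median absolute difference of the members was 1.81 in this pair and 0.99 in *Comephorus*, and 1.02 and 0.97 over all 792. With 1 library per species these differences have no test.

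**Figure D4:**
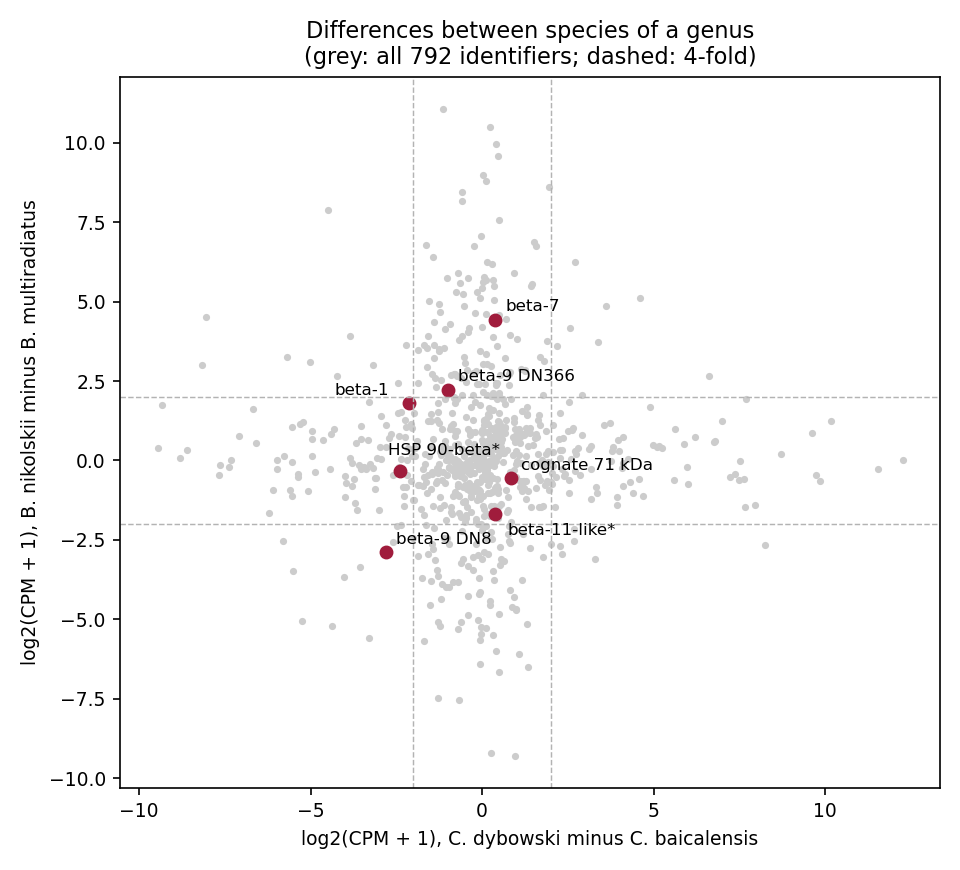
Each point is an identifier, with the difference of *C. dybowski* minus *C. baicalensis* on the horizontal axis and of *B. nikolskii* minus *B. multiradiatus* on the vertical axis, both on log2(CPM + 1); dark points are the 7 heat shock identifiers, grey points all 792, and dashed lines mark 4-fold. Beta-7 lies highest of the members at 4.43, and DN8_c0_g1 of beta-9 is the only member beyond 4-fold in both genera.

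The 4 pairs across genera share libraries with each other, so each is given on its own. On log2(CPM + 1), at least 4-fold differences were found for 6 of 7 members between *C. dybowski* and *B. nikolskii* (85.4% of all 792), the exception being DN366_c0_g2 of beta-9. They were found for 6 between *C. dybowski* and *B. multiradiatus* (81.6%) and for 6 between *C. baicalensis* and *B. multiradiatus* (80.8%), beta-7 being the exception in both. Between *C. baicalensis* and *B. nikolskii* there were 5 (84.3%), the exceptions being both beta-9 identifiers, which differed there by 1.97 (DN366_c0_g2) and -1.39 (DN8_c0_g1). Without the added 1, the CPM of DN366_c0_g2 was 4.18 times as large in *C. baicalensis* as in *B. nikolskii*.

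The 3 largest single gaps all had *C. dybowski* on one side. Beta-9 DN8_c0_g1 differed by -7.09 on the log2 scale from *B. multiradiatus* (*C. dybowski* minus *B. multiradiatus*), and beta-11-like by 6.93 and beta-1 by -6.65 from *B. nikolskii* (*C. dybowski* minus *B. nikolskii*). Over the 7 members, no library was high or low for all heat shock identifiers.

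The identifier set aside (DN116_c0_g1), titled heat shock protein beta-8, in mammals a partner of BAG3 in clearing damaged muscle proteins, and troponin I of slow muscle, was at 17.1 CPM in *C. dybowski* and 2.86 CPM in *C. baicalensis*, against 107 CPM in *B. nikolskii* and 66.2 CPM in *B. multiradiatus*. It did not overlap between the genera but did not pass the test (-3.35 ± 1.09, adjusted p = 0.0656 by limma). Another identifier with the same troponin I title (DN2629_c0_g1, also titled clpX, a mitochondrial protein-unfolding enzyme) was at 4.95 and 13.6 CPM in *C. dybowski* and *C. baicalensis*, against 207 and 58.7 CPM in *B. nikolskii* and *B. multiradiatus* (-3.58 ± 1.06, adjusted p = 0.0519). How far the values of DN116_c0_g1 belong to beta-8 was not tested.

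Other proteins of folding were taken from 12 identifiers with titles such as T-complex protein 1, prefoldin, DnaJ, protein disulfide-isomerase and peptidyl-prolyl isomerase. Limma called 4 of the 12 higher and 4 lower in *Comephorus*, beside 30.1% and 24% of all 792. Ranges of the genera did not overlap for any of the 12, as for 84.5% of all 792. Both *Comephorus* libraries lay above for 6 and below for 6, beside 353 and 316 of all 792. The median difference was -0.49. Of these 12, 10 also carry further titles, so that most values cannot be given to a chaperone alone. In DN4459_c0_g1 the further title is only that of an uncharacterized protein.

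The 2 with chaperone titles alone had larger values in *Comephorus*. Prefoldin subunits 3 and 4, parts of the complex that hands new actin and tubulin to the chaperonin (DN580_c0_g1), were higher there, at 43.2 CPM in *C. dybowski* and 21.9 CPM in *C. baicalensis*, against 0.985 CPM in *B. nikolskii* and 0 CPM in *B. multiradiatus*, where 3 counts would be 0.0526 CPM (4.50 ± 0.86, adjusted p = 0.0214 by limma). This call did not hold under every alternative fit with all 4 libraries. Over the fits that left out a library the difference ranged between 4.00 and 4.99. BAG family molecular chaperone regulator 2, a regulator of the 70 kDa family (DN2219_c0_g1), was at 35.6 and 36.0 CPM in *C. dybowski* and *C. baicalensis*, against 1.52 and 10.4 CPM in *B. nikolskii* and *B. multiradiatus* (2.78 ± 1.05, adjusted p = 0.0902). Its values had the same order of genera as the cognate 71 kDa protein, without passing the test.

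Among mixed titles, DnaJ homolog subfamily B member 2, a co-chaperone of the 70 kDa family, stands beside titles of CIB1-like and TMEM242 (DN222_c0_g1). It was lower in *Comephorus*, at 13.7 CPM in *C. dybowski* and 13.7 CPM in *C. baicalensis*, against 378 and 393 CPM in *B. nikolskii* and *B. multiradiatus* (-4.71 ± 0.71, adjusted p = 0.0186 by limma). Endoplasmic reticulum chaperone BiP, the 70 kDa relative of that compartment, shares its identifier with a mannose-specific lectin-like title (DN2251_c0_g1). It was at 2.85 and 0.405 CPM in *C. dybowski* and *C. baicalensis*, against 288 and 5.17 CPM in *B. nikolskii* and *B. multiradiatus* (-4.18 ± 2.16, adjusted p = 0.164), and like beta-7 it was high in *B. nikolskii* alone.

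Patterns like those of the members were sought among titled identifiers, by the Euclidean distance of log2(CPM + 1) values over the 4 libraries, each centred on its mean. The nearest to the cognate 71 kDa protein was mitochondrial dicarboxylate carrier (DN4111_c2_g1, distance 0.25), at 60.1 and 27.2 CPM in *C. dybowski* and *C. baicalensis*, against 2.47 and 4.43 CPM in *B. nikolskii* and *B. multiradiatus*. Next came an identifier titled nebulin, GMP reductase 1 and cullin-4A (DN2117_c0_g1, 0.36). For beta-11-like they were 26S proteasome non-ATPase regulatory subunit 7 (DN3861_c0_g1, 0.34) and a rhamnose-binding lectin (DN210_c0_g1, 0.47). With only 4 libraries few patterns are distinct, and nearness is a description only.

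For HSP 90-beta the nearest were an identifier titled negative elongation factor E and CREG1 (DN5332_c0_g1, 0.46) and adenylate kinase 1 (DN195_c0_g2, 0.55). For beta-1 they were G0/G1 switch protein 2 (DN5205_c0_g2, 0.51) and a nucleolar phosphoprotein that interacts with MKI67 (DN5318_c0_g1, 0.62). For beta-7 they were an identifier titled sperm acrosome membrane-associated protein 4 and a pancreatic progenitor factor (DN670_c0_g1, 0.49) and one titled chymotrypsin B-like and zona pellucida protein 3-like (DN5266_c0_g1, 0.72). These neighbours were selected for a pattern like that of beta-7, so their high values in *B. nikolskii* follow from the selection.

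The beta-9 identifiers had no neighbour in common. Nearest to DN366_c0_g2 were an interferon-induced protein (DN12205_c0_g1, 0.44) and an identifier titled decaprenyl-diphosphate synthase subunit 1 and Bax inhibitor 1 (DN905_c0_g1, 0.58). Nearest to DN8_c0_g1 were a mannosidase of glycan trimming (DN1853_c0_g2, 0.98) and an identifier titled galectin-3-binding protein A and WD repeat protein 7 (DN306_c0_g1, 1.54), so its pattern had the most distant neighbours of the 7. Among the members themselves, HSP 90-beta and beta-1 were closest (1.60), followed by HSP 90-beta and DN8_c0_g1 (1.83) and by the cognate 71 kDa protein and DN366_c0_g2 (2.48).

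Marker lists were taken by title from the same 792 identifiers, which were kept for differences between these libraries, and they ran in different directions. Single titles stood on 5 of 17 fast muscle, 1 of 8 slow or cardiac and 4 of 9 hemoglobin identifiers. They stood on 0 of 2 connective tissue, 4 of 7 liver or egg, 5 of 7 immune cell and 3 of 7 keratin identifiers. The others carry further titles, so these sums cannot be given to the named cells alone. Fast muscle titles (17 identifiers) summed to 125618 and 99138 CPM in *C. dybowski* and *C. baicalensis*, against 56868 and 78598 CPM in *B. nikolskii* and *B. multiradiatus*. Slow or cardiac muscle titles (8) summed to 33401 and 54160 CPM in *C. dybowski* and *C. baicalensis*, against 11428 and 21074 CPM in *B. nikolskii* and *B. multiradiatus*. Identifiers with titles of the labelled tissue were thus abundant in every library, although 2 of those for fast muscle were at 0 in *B. nikolskii* and 1 in *B. multiradiatus*. Single members did not all run the way of these sums. In the slow list, DN116_c0_g1 (the beta-8 identifier set aside) and DN2629_c0_g1 were larger in both *Batrachocottus* libraries. So was DN18_c0_g1 of the fast list, titled fast skeletal myosin heavy chain among others. The directions of the other members were not counted. The sum of hemoglobin titles (9), of red blood cells, ran the same way as the muscle sums. It was at 3382 and 3131 CPM in *C. dybowski* and *C. baicalensis*, against 1096 and 734 CPM in *B. nikolskii* and *B. multiradiatus*, with 1 identifier at 0 in *B. nikolskii*. The part of muscle fibres and red blood cells in the larger values of beta-11-like and the cognate 71 kDa protein in *Comephorus* was not tested.

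Connective tissue titles (2) were larger in both *Batrachocottus* libraries, as were beta-1, HSP 90-beta and DN8_c0_g1. They were at 14.1 and 138 CPM in *C. dybowski* and *C. baicalensis*, against 855 and 518 CPM in *B. nikolskii* and *B. multiradiatus*. Liver or egg titles (7) were at 46.6 and 168 CPM in *C. dybowski* and *C. baicalensis*, against 1551 and 132 CPM in *B. nikolskii* and *B. multiradiatus*, with 1 at 0 in *C. dybowski*. Immune cell titles (7) were at 150 and 82.3 CPM in *C. dybowski* and *C. baicalensis*, against 409 and 82.0 CPM in *B. nikolskii* and *B. multiradiatus*. Both lists were highest in *B. nikolskii*, as were beta-7 and beta-1.

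Keratin titles (7), of epidermis, were at 183 and 589 CPM in *C. dybowski* and *C. baicalensis*, against 29.0 and 894 CPM in *B. nikolskii* and *B. multiradiatus*. The fat cell title (1) was at 2.21 and 30.8 CPM in *C. dybowski* and *C. baicalensis*, against 0.488 and 70.5 CPM in *B. nikolskii* and *B. multiradiatus*. Both were highest in *B. multiradiatus*, as were DN8_c0_g1 of beta-9 and HSP 90-beta. Both lists were lowest in *B. nikolskii*, unlike these members, which were lowest in *C. dybowski*. The part of these cells in the values of beta-1, beta-7, beta-9 and HSP 90-beta was not tested.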

How the data were processed

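RNA of 4 species pools was sequenced on 1 library each. The authors trimmed reads with Trimmomatic 0.36, assembled each species with Trinity, merged the assemblies by CD-HIT and quantified them with Salmon. Counts, as deposited, are the whole-number Salmon estimates of each Trinity gene, without normalization, listed per genus above a floor (lowest counts 57 to 61). For 3 members not listed in the count table of at least 1 genus,  reads were taken as CPM times the adjusted library size, rounded. The CPM values are as deposited by the authors, scaled with edgeR 4.0.3 to adjusted library sizes 0.960 to 1.25 times the totals.

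Titles came from 1325 rows of the authors' title table, and 127 further rows were not read. Names are shared between the separate assemblies, and 117 of 1078 transcript names joined several sequences. Members and lists were chosen with earlier results of these data known, so no set test was run.

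The genus contrast was fitted with limma 3.58.1 on log2(CPM + 1) over 792 identifiers, which understates changes of low genes, and with edgeR 4.0.16 (quasi-likelihood, TMM) on counts of 4755 identifiers listed for both genera, under R 4.3.3, with calls at a Benjamini-Hochberg adjusted p under 0.05. P-values measure the spread between species pools of a genus. For edgeR, the value after ± was derived as the absolute log2 difference divided by the square root of the test's F statistic. Both fits were tried on counts simulated for the 4755 identifiers, with 200 altered. This does not check limma on the 792 selected identifiers. Pairs of libraries were compared by a 4-fold threshold without a test. Intervals (95%) and the limit of 3 counts cover counting error only.

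Named were the members, the identifier set aside, identifiers sharing a companion title, the chaperone list by count with a few by value, and the 2 nearest titled identifiers per member. DnaJ homolog subfamily B member 2 and BiP were chosen after their values were seen. Alternatives were DESeq2 1.42.0, edgeR on read estimates, pseudocounts of 0.1 and 10, filters at 5 CPM, the authors' library sizes, identifiers with 1 title, summed beta-9 identifiers, inclusion of the beta-8 identifier, folds of 2 and 8, and leaving out each library; rescaling CPM to table totals was added after seeing the data.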

Additional observations from a re-analysis of the deposited data

How the results depend on the processing

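With edgeR on read estimates, 242 of 792 identifiers were called and 0 of the 7 members (2 at an unadjusted p under 0.05). The adjusted p of the 4 called members then lay between 0.0542 and 0.0927. With a pseudocount of 0.1 the calls were 2, without HSP 90-beta (0.0527) and beta-1 (0.0550), and with 10 they were 2, without the cognate 71 kDa protein (0.0518) and beta-1 (0.0579). Leaving out each library gave 0 to 316 calls over all identifiers and 0 to 2 among members by limma, and 0 to 292 over all and 0 to 0 among members by edgeR on counts (1 to 4 members at an unadjusted p under 0.05). DESeq2 on counts called 1808 of 4755 and 4 of 4 members. The median difference of the 7 members and of the small family, and the value of beta-7, was 0.28 without *B. nikolskii*, the medians ranged between -2.80 and 0.28 over the left-out libraries, and beta-7 between -4.14 and 0.28. Chaperone calls were 1 of the 2 identifiers with chaperone titles alone, against 8 of the 12 in the whole list. Rescaling to table totals moved the median of all identifiers by -0.15 on the log2 scale and changed no call of a member. The other 6 members kept the direction of their difference under every alternative run. Members at least 4-fold apart numbered 29 over the 6 pairs, 33 at 2-fold and 21 at 8-fold. The pairs share libraries, so these counts are not of independent differences. Of all 792 identifiers, between 26.5% and 85.4% were at least 4-fold apart, depending on the pair. Their shares at 2-fold and 8-fold were not counted. The filter at a mean of 5 CPM removed no identifier. No paired analysis was possible because each library is a pool of a different species, with no pairing between the genera. With 1 pool per species, spread between fish was not measured, and members at 8 to 60 reads are limited by depth.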
